A study of Homo sapiens with 9 samples.

Results

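The genes examined encode RNA polymerase II, the general transcription factors and Mediator, the machinery that starts transcription of protein-coding genes. They were chosen by name: protein-coding genes whose symbol was POLR2A to POLR2L, began with MED and a digit, with GTF2 and a letter from A to H or with TAF and a digit, or was TBP. This gave 94 members among 58735 genes listed, of which 19951 were protein coding. RNA was sequenced from SKOV3 cells, an established ovarian carcinoma line, in 3 groups of 3 libraries. WT CDK9 cells and Tyr19Phe CDK9 cells were stable lines in which endogenous CDK9 had been depleted with a short hairpin RNA and wild-type CDK9, or CDK9 with phenylalanine in place of tyrosine at position 19, was expressed from an introduced construct. ALK inhibitor-treated WT CDK9 cells were the wild-type line after 24 h with an inhibitor of the receptor tyrosine kinase ALK, whose name and dose are not given for these libraries in the sources used here. Whether each line was a clone or a pool is also not given, so that line and CDK9 form cannot be told apart in any comparison with Tyr19Phe CDK9 cells. The labels do not say that the libraries of a group came from separate cultures, and p-values then measure only the spread between these libraries.

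Total counts ran from 18939449 to 19731228 in the WT CDK9 libraries, from 18169050 to 20974903 in the ALK inhibitor-treated libraries and from 26485891 to 29320184 in the Tyr19Phe libraries. The Tyr19Phe libraries were thus the deepest, and levels are therefore scaled for depth. They are given in CPM, counts divided by library size after TMM, edgeR's correction for library composition, or in TPM, computed from counts and gene length. Replicate 2 of the ALK inhibitor-treated cells and replicate 3 of the Tyr19Phe CDK9 cells had fewer genes with a count, 19944 and 20635, than any other library, and counts of changed members without them are given below. In RNA from whole cultures, less RNA per cell and fewer expressing cells cannot be told apart.

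All 6 epithelial or lineage markers fixed for SKOV3 (EPCAM, KRT8, KRT18, KRT19, ERBB2 and PAX8) were detected. Their summed level was 3694, 3820.0 and 3806 CPM in the WT CDK9 libraries, 4623, 4663 and 4643 CPM in the ALK inhibitor-treated libraries and 3742, 3812 and 3605 CPM in the Tyr19Phe libraries. The most abundant by length (TPM, from the gene lengths in the deposited table) was KRT8 in WT CDK9 cells at 785 TPM and in Tyr19Phe CDK9 cells at 1013 TPM, and ERBB2 in ALK inhibitor-treated cells at 1079 TPM. With the inhibitor ERBB2 and KRT19 rose against WT CDK9 cells, with log2 fold changes of 0.54 and 0.21. In Tyr19Phe CDK9 cells KRT8 (0.38) and KRT18 (0.39) rose, and EPCAM (-0.82), KRT19 (-1.24) and ERBB2 (-0.29) fell. The part of these shifts in the results below was not tested. CDK9 itself had 48.5 ± 1.03 CPM in WT CDK9 cells, 45.5 ± 1.76 CPM in ALK inhibitor-treated cells and 54.9 ± 3.94 CPM in Tyr19Phe CDK9 cells (SD, n = 3), with an adjusted p of 0.666 and 0.106 against WT CDK9 cells by edgeR. Between Tyr19Phe and treated cells CDK9 differed, with a log2 fold change of 0.27 (adjusted p = 0.00961). These counts do not separate introduced from endogenous CDK9 transcripts.

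RNA polymerase II is built around POLR2A and POLR2B, which form its active site, and the long tail of POLR2A is the substrate of CDK9. TFIID, made of TBP and its TAF partners, recognises the core promoter, and TFIIA, TFIIB, TFIIE, TFIIF and TFIIH complete the initiation complex and open the DNA. Mediator, with its head, middle and tail modules on the MED14 scaffold and a separable kinase module, carries signals from activators to the polymerase.

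Of the 94 members, 79 had enough counts to be tested and 15 did not. The 14 members at 0 in all libraries were GTF2A1L, the germ-cell form of the large TFIIA subunit, and the 13 genes TAF11L2 to TAF11L14, recent copies of TAF11. A count of 0 allows a level of up to 0.102 to 0.165 CPM in these libraries. This bound takes 3 counts over the total counts of a library, without TMM, and covers counting error only. The other untested member, TAF1L, a retrocopy of TAF1, had 2 counts in all. The members together took from 0.444% to 0.456% of all counts in each library.

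Among the tested members, levels per length spanned a wide range. POLR2L, a small subunit shared by the nuclear polymerases, had the highest mean over the 9 libraries, 365 TPM, with libraries from 281 to 434 TPM. TAF7 followed at 219 TPM, then POLR2G at 198 TPM and POLR2E at 189 TPM, and the ranges of these last members overlapped over libraries. The catalytic subunits POLR2A and POLR2B stood at 115 and 124 TPM, and their library ranges also overlapped. At the low end were MED12L at 0.388 TPM, TAF7L at 0.503 TPM and GTF2H4 at 0.893 TPM. GTF2H4, a TFIIH core subunit, lay over 99.0% of its span within VARS2 on the same strand and had 94 counts in all against 8267 for VARS2, so its level is uncertain. The median member had 40.3 TPM, against 16.8 TPM over all 16350 tested genes and 23.6 TPM over the tested protein-coding genes. By complex, the median level was 88.8 TPM for the 12 polymerase subunits, 37.3 TPM for the 18 tested TFIID genes and 35.9 TPM for the 30 Mediator genes.

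**Figure D1:**
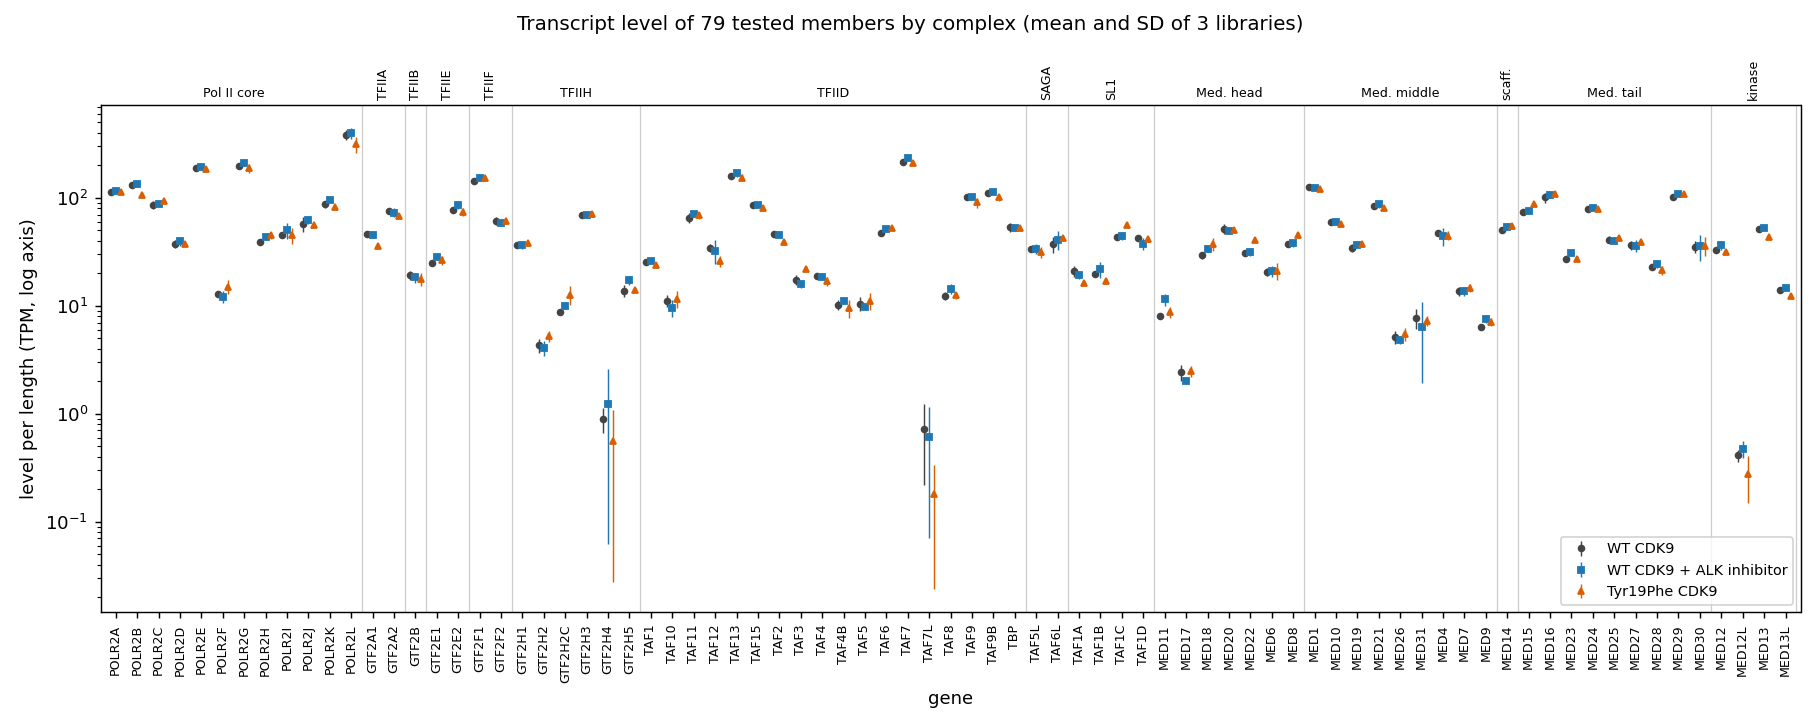
Level of each of the 79 tested members in TPM on a log axis, grouped by complex; points are means of 3 libraries and bars their SD, with the lower bar shortened where it would reach 0. Most members sat at closely similar heights in the 3 groups, and POLR2L stood highest at a mean of 365 TPM.

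The treated wild-type line was compared with the untreated one to ask what 24 h of ALK inhibition does to transcripts when CDK9 is unmutated. No member passed an adjusted p of 0.05 in edgeR's quasi-likelihood test with Benjamini-Hochberg adjustment over all tested genes: 0 of 79 were lower and 0 were higher, where 2.73% and 1.82% of all tested genes were. POLR2A, the largest subunit, had 240.6, 223 and 228 CPM in the WT CDK9 libraries and 238, 233.5 and 215 CPM in the treated libraries. These overlapped, and its log2 fold change was -0.01 with a 95% interval from -0.11 to 0.09. POLR2B had 188 ± 5.80 CPM in treated cells against 187 ± 1.77 CPM in WT CDK9 cells (SD, n = 3), a log2 fold change of 0.00 with an interval from -0.09 to 0.10. Narrow intervals around 0 were not limited to the polymerase. The log2 fold changes and intervals were -0.06 (-0.27 to 0.14) for TBP, the TATA-binding protein, and -0.02 (-0.15 to 0.12) for TAF1, the TFIID scaffold. They were 0.04 (-0.08 to 0.16) for GTF2F1, the large subunit of TFIIF, and -0.04 (-0.20 to 0.11) for GTF2H1 of the TFIIH core. In Mediator they were -0.07 (-0.16 to 0.01) for MED1, 0.11 (-0.05 to 0.27) for MED12 and 0.04 (-0.07 to 0.15) for MED14.

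Less can be said of members with few counts. GTF2B, which bridges TBP and the polymerase, had a log2 fold change of -0.11 with an interval from -0.44 to 0.22, and MED17, a head subunit, -0.29 with an interval from -0.64 to 0.06. Over all 79 members, the interval lay within 0.5 of 0 on the log2 scale for 68 and within 1 for 74. Those whose interval went past 1 were MED11, MED12L, MED31, TAF7L and GTF2H4, named here for that reason after their values were seen.

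At an unadjusted p under 0.05, 1 member was lower and 1 was higher, or 1.27% each, where 8.22% and 6.91% of all tested genes were. The lower one was TAF1D, a subunit of the SL1 factor of RNA polymerase I, with 85.0, 84.5 and 88.6 CPM in WT CDK9 cells and 79.6, 63.4 and 81.1 CPM in treated cells. The higher one was GTF2H5, the smallest TFIIH subunit, with 27.7, 26.2 and 21.9 CPM against 28.5, 34.5 and 29.8 CPM. These counts became 3 and 1 without ALK inhibitor replicate 1 or WT CDK9 replicate 3, 2 and 2 without ALK inhibitor replicate 3, and 1 and 3 without WT CDK9 replicate 1. For TAF1D and GTF2H5 neither pair of groups overlapped, but the adjusted p was 0.147 and 0.143, and both genes were picked out after their values were seen. DESeq2 also called 0 members in either direction, with 1 lower and 1 higher at its unadjusted p under 0.05. In 9 of 79 members the treated libraries lay wholly above or wholly below the WT CDK9 libraries, or 11.4%, where 19.6% of all tested genes did so. The median log2 fold change was -0.0007 over the members and -0.0010 over all tested genes, and the median size of the change was 0.08 and 0.13. Across all genes 447 fell and 297 rose, a split that became 344 and 406 when libraries were scaled by total count alone.

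**Figure D2:**
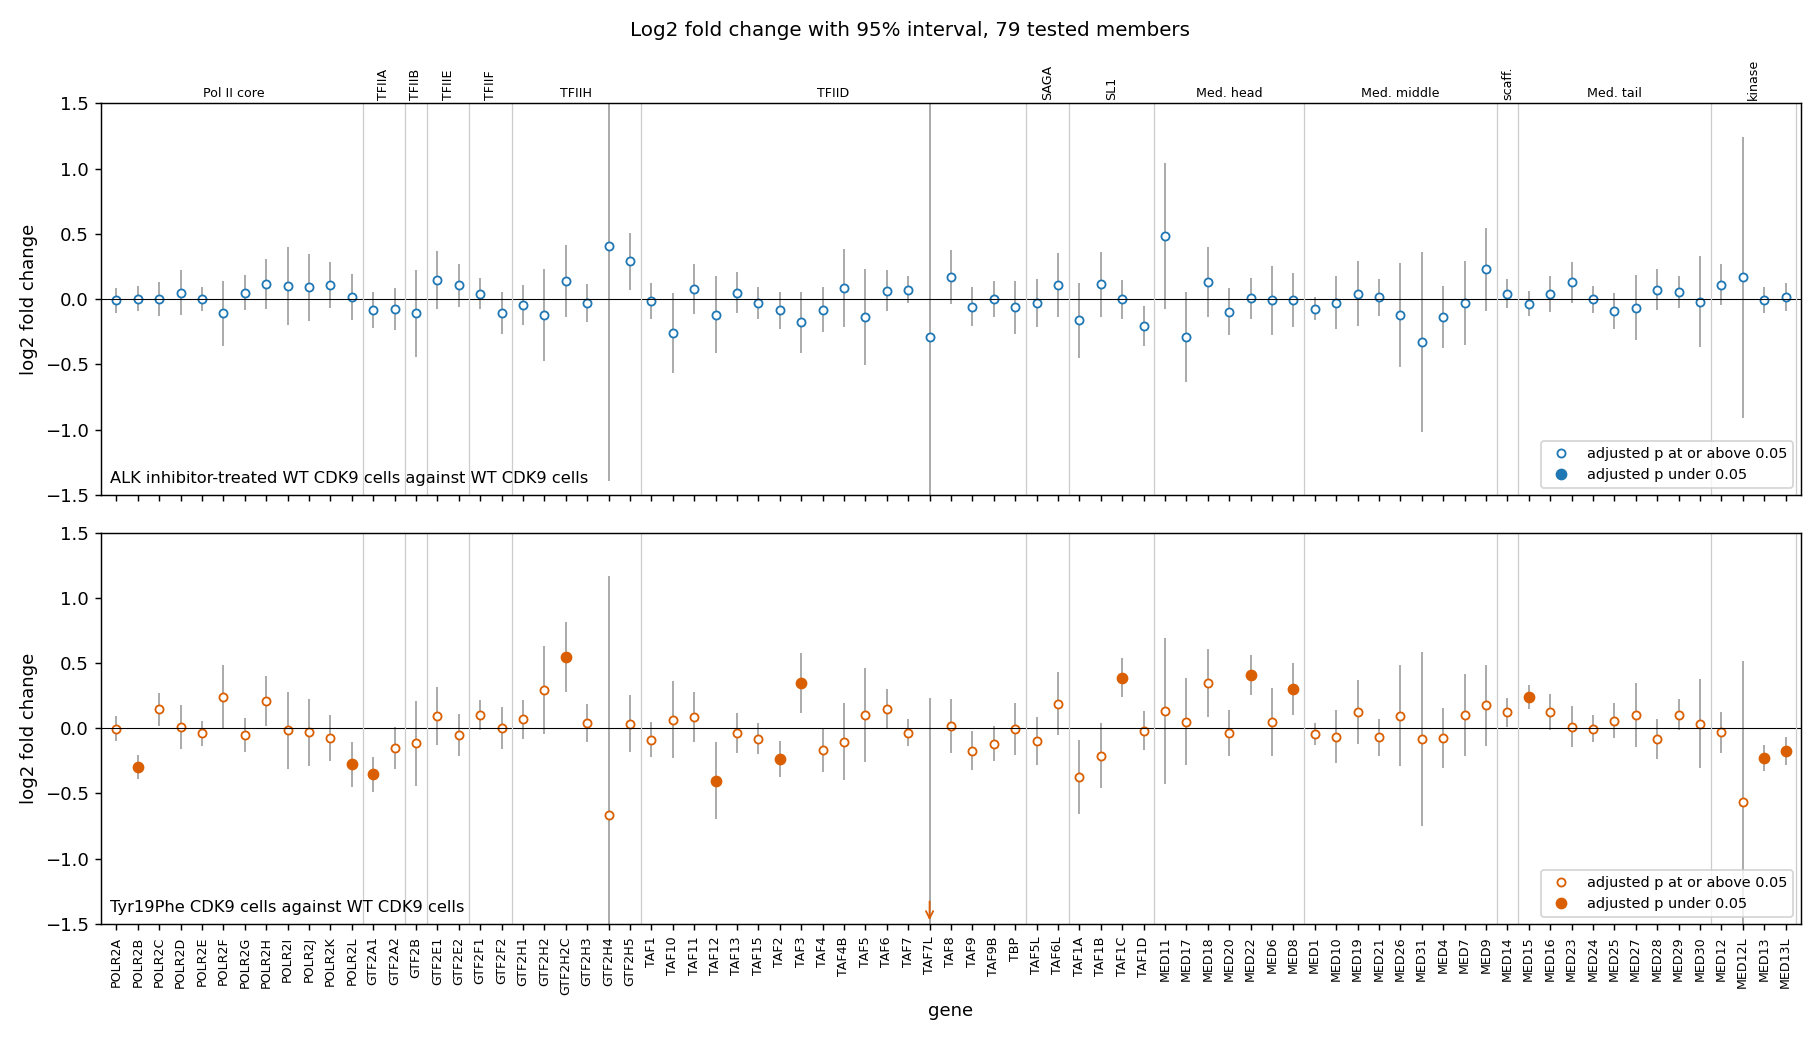
Log2 fold change of the 79 tested members (points) with 95% intervals (lines) in ALK inhibitor-treated WT CDK9 cells (upper panel) and Tyr19Phe CDK9 cells (lower panel), each against WT CDK9 cells; filled points have an adjusted p under 0.05, lines are clipped at the axis limits and an arrow marks TAF7L at -1.94. The upper panel has no filled point and the lower panel has 13.

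Tyr19Phe CDK9 cells were compared with the same WT CDK9 libraries to ask how transcripts differ when CDK9 cannot be phosphorylated at that tyrosine. Here 7 members were lower and 6 were higher, in edgeR's quasi-likelihood test at an adjusted p under 0.05. The lower members were POLR2B, POLR2L, GTF2A1, TAF2, TAF12, MED13 and MED13L, and the higher ones were GTF2H2C, MED22, TAF1C, TAF3, MED8 and MED15. The shares, 8.86% lower and 7.59% higher, were close to those over all tested genes, 10.4% and 7.61%, so the count is not a result about the members. Changes were small: folds ran from 0.757 for TAF12 to 1.46 for GTF2H2C. The median log2 fold change was -0.003 over the members and 0.0035 over all tested genes, and the median size of the change was 0.10 and 0.18. In 23 of 79 members, or 29.1%, the groups did not overlap, where 32.6% of all tested genes did not.

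POLR2B, the second largest polymerase subunit, had 186, 188 and 189 CPM in the WT CDK9 libraries, 182.0, 193.5 and 189 CPM in the ALK inhibitor-treated libraries and 151, 153 and 153 CPM in the Tyr19Phe libraries. Every Tyr19Phe library was below every other library. The log2 fold change against WT CDK9 cells was -0.30 with a standard error of 0.05 and an adjusted p of 8.08e-06 by edgeR, a fold of 0.813. POLR2A, its partner in the active site, had 238.5, 220.4 and 231 CPM in the Tyr19Phe libraries, overlapping the WT CDK9 libraries with replicate 2 just below their lowest, and a log2 fold change of -0.00 with a 95% interval from -0.10 to 0.09.

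The other polymerase member that fell was POLR2L, which had 98.1, 117 and 102 CPM in WT CDK9 cells and 76.8, 104.5 and 80.6 CPM in Tyr19Phe CDK9 cells. Its groups overlapped, through Tyr19Phe replicate 2. Its change of -0.28 on the log2 scale (standard error 0.09) had an adjusted p of 0.0205 by edgeR, and became -0.42 without Tyr19Phe replicate 2. It lost its call with DESeq2 (adjusted p = 0.208) and without WT CDK9 replicate 2, Tyr19Phe replicate 1 or Tyr19Phe replicate 3 (adjusted p up to 0.176), over alternatives from 0.000191 to 0.208. POLR2L shares 47.7% of its span with CD151 on the opposite strand, and since the strand setting of the counting is not given in the sources used here, reads of the overlapping stretch may not be separable. CD151 had 69474 counts against 19691 for POLR2L, and a log2 fold change of 0.08 with an adjusted p of 0.230 by edgeR. None of the other 10 polymerase subunits passed the test. The median log2 fold change over the 12 subunits was -0.02 in Tyr19Phe CDK9 cells and 0.03 in ALK inhibitor-treated cells.

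Among the general factors other than TFIID, 1 of 13 tested genes fell and 1 rose, where 10.4% and 7.61% of all tested genes did. GTF2A1 encodes the precursor of the alpha and beta subunits of TFIIA, which steadies TBP on DNA. It had 74.3, 76.8 and 78.8 CPM in WT CDK9 cells, 73.3, 75.4 and 68.3 CPM in ALK inhibitor-treated cells and 59.4, 57.8 and 62.6 CPM in Tyr19Phe CDK9 cells. All 3 Tyr19Phe libraries were below all 6 others, and edgeR gave a change of -0.35 on the log2 scale, a fold of 0.783, with 0.07 as its standard error and an adjusted p of 0.000182. GTF2A2, for the small TFIIA subunit, had a log2 fold change of -0.15 with an adjusted p of 0.199, and is named after its value was seen.

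GTF2H2C, a copy of the TFIIH core gene GTF2H2, had 14.9, 14.4 and 15.2 CPM in WT CDK9 cells, 16.1, 17.1 and 15.9 CPM in ALK inhibitor-treated cells and 21.2, 17.4 and 26.3 CPM in Tyr19Phe CDK9 cells. The Tyr19Phe libraries were the highest but spread widely. On the log2 scale the gene rose by 0.54, with 0.13 as its standard error and an adjusted p of 0.00299 by edgeR, and by 0.39 without Tyr19Phe replicate 3, where the adjusted p was 0.0536 against 0.000454 to 0.0536 over alternatives. GTF2H2, GTF2H2C and the pseudogene GTF2H2B are near-identical copies on chromosome 5, and their reads cannot be assigned with certainty. The sum of the 3 was 36.3 ± 2.18 CPM in WT CDK9 cells, 34.5 ± 1.32 CPM in treated cells and 42.2 ± 3.62 CPM in Tyr19Phe CDK9 cells (SD, n = 3), and replicate 2 of each of the WT CDK9 and Tyr19Phe groups lay at nearly the same level, 38.3 and 38.0 CPM.

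The remaining factors that define each complex did not pass the test. GTF2B had a log2 fold change of -0.12 with a 95% interval from -0.44 to 0.21, and GTF2F1 0.10 with an interval from -0.01 to 0.22. GTF2H1 had 0.07 with an interval from -0.08 to 0.22.

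In TFIID, 2 of 18 tested genes fell and 1 rose, where 10.4% and 7.61% of all tested genes did. TAF2, which contacts the initiator element, had 75.8, 69.8 and 75.1 CPM in WT CDK9 cells and 60.3, 60.1 and 66.9 CPM in Tyr19Phe CDK9 cells. It fell by 0.24 on the log2 scale, with 0.07 as the standard error and an adjusted p of 0.0120 by edgeR, and the groups did not overlap. TAF12, a histone-fold subunit, had 20.6, 17.5 and 20.2 CPM against 15.3, 16.0 and 12.8 CPM, a log2 fold change of -0.40 with a standard error of 0.14. Its adjusted p of 0.0491 was the closest to the threshold among the 13 members called, and in 9 of 18 alternatives it was above it, up to 0.220. TAF3, the subunit that binds a methylated histone mark of active promoters, had 19.2, 22.8 and 19.7 CPM in WT CDK9 cells, 17.6, 17.0 and 19.9 CPM in ALK inhibitor-treated cells and 24.6, 25.8 and 28.1 CPM in Tyr19Phe CDK9 cells. It rose, with a log2 fold change of 0.35, a standard error of 0.11 and an adjusted p of 0.0268 by edgeR. The call for TAF3 was lost without WT CDK9 replicate 1 or 3 or Tyr19Phe replicate 2 or 3 (adjusted p up to 0.1235, from 0.0147 over alternatives). That for TAF2 was lost without WT CDK9 replicate 1 or 3 or Tyr19Phe replicate 1 or 2 (up to 0.0737, from 0.00731).

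TBP and TAF1, at the centre of TFIID, stayed near 0. TBP had 29.8 ± 1.08 CPM in Tyr19Phe CDK9 cells against 29.9 ± 3.13 CPM (SD, n = 3), a log2 fold change of -0.00 with an interval from -0.20 to 0.19, and TAF1 had -0.09 with an interval from -0.22 to 0.05. The rule by name also took in 4 TAFs of SL1, the selectivity factor of RNA polymerase I, of which TAF1C rose. TAF1C had 59.6, 59.6 and 56.2 CPM in WT CDK9 cells, 60.5, 62.0 and 52.8 CPM in ALK inhibitor-treated cells and 72.5, 81.2 and 76.0 CPM in Tyr19Phe CDK9 cells. All Tyr19Phe libraries were above all others, with a log2 fold change of 0.39, a standard error of 0.07 and an adjusted p of 0.00016 by edgeR.

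In Mediator, 2 of 30 genes fell and 3 rose, where 10.4% and 7.61% of all tested genes did. Both that fell belong to the kinase module, where MED13 or its paralog MED13L links the kinase to the core. MED13 had 163, 159 and 151 CPM in WT CDK9 cells, 159.9, 155 and 155 CPM in ALK inhibitor-treated cells and 138, 132 and 134 CPM in Tyr19Phe CDK9 cells, and MED13L had 130.2, 123 and 129 CPM, 131, 126 and 129 CPM, and 115.5, 112.5 and 109.5 CPM in the same order. In each, the Tyr19Phe libraries were the lowest of the 9. The log2 fold changes were -0.23 and -0.18, each with a standard error of 0.05, and the adjusted p was 0.00102 and 0.0152 by edgeR. The module's MED12 had a log2 fold change of -0.03 with an interval from -0.19 to 0.13. When each library's trend with GC content and gene length was removed, the calls for MED13 (log2 fold change -0.11, adjusted p = 0.125), MED13L (-0.09, adjusted p = 0.247) and TAF2 (-0.17) were lost. Their adjusted p ranged over alternatives from 7.36e-05 to 0.1295 for MED13 and from 0.00584 to 0.264 for MED13L. MED13L also lost its call without WT CDK9 replicate 1 (adjusted p = 0.0898), WT CDK9 replicate 3 or Tyr19Phe replicate 3.

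The Mediator genes that rose were MED22 and MED8 of the head and MED15 of the tail, a target of activators. MED22 had 51.0, 55.4 and 54.4 CPM in WT CDK9 cells, 47.8, 58.0 and 55.6 CPM in ALK inhibitor-treated cells and 68.2, 72.5 and 72.1 CPM in Tyr19Phe CDK9 cells. MED15 had 183, 191 and 188.5 CPM in WT CDK9 cells, 185, 185 and 179 CPM in treated cells and 220.1, 214 and 231 CPM in Tyr19Phe CDK9 cells. In both genes every Tyr19Phe library was above every other. The log2 fold changes were 0.41 for MED22 (standard error 0.07, adjusted p = 0.000149 by edgeR) and 0.24 for MED15 (standard error 0.05, adjusted p = 0.00017). MED8 had 23.5, 24.0 and 25.5 CPM against 29.9, 31.0 and 28.9 CPM, a log2 fold change of 0.30 with a standard error of 0.10 and an adjusted p of 0.0319. Its call was lost when every gene with at least 1 count in total was kept and without WT CDK9 replicate 1 or 2 or Tyr19Phe replicate 1 or 2, with an adjusted p of up to 0.115 and 0.0189 at the lowest over alternatives.

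The remaining defining Mediator genes did not pass the test. MED14 had 129 ± 5.30 CPM against 119 ± 2.74 CPM (SD, n = 3), a log2 fold change of 0.12 with an interval from 0.01 to 0.23 and an adjusted p of 0.118 by edgeR. With the GC and length trend removed it was 0.21 (adjusted p = 0.00242), over alternatives from 0.00242 to 0.324. MED1, a middle subunit that binds nuclear receptors, had -0.04 with an interval from -0.13 to 0.04, and MED17 had 0.05 with an interval from -0.29 to 0.39.

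**Figure D3:**
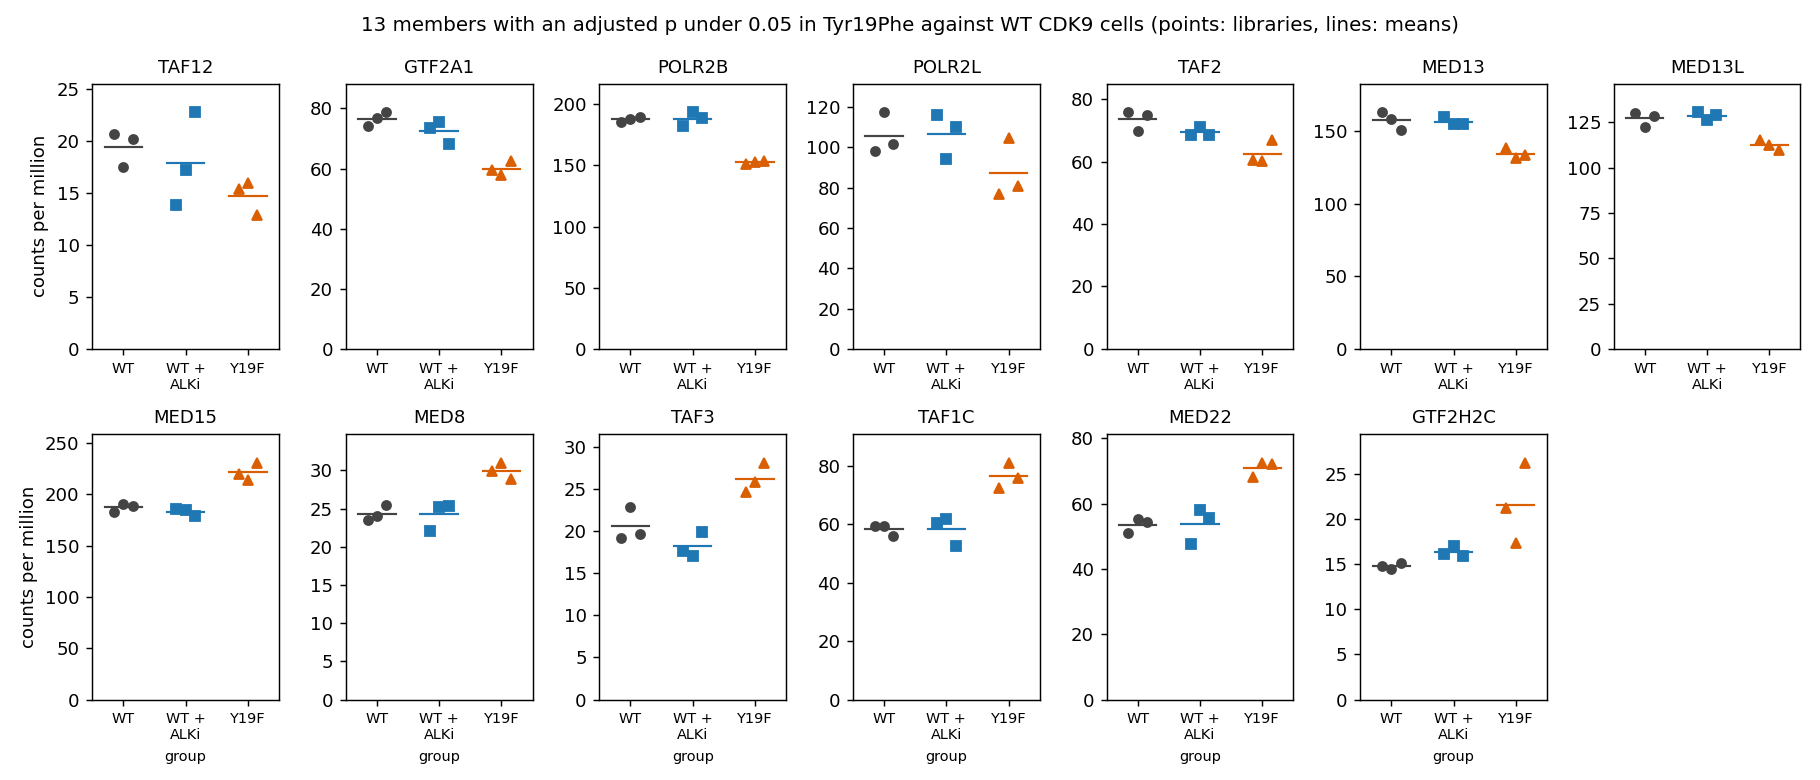
CPM in each library (points) and group means (lines) of the 13 members with an adjusted p under 0.05 in Tyr19Phe against WT CDK9 cells, each on its own axis from 0 (WT, WT CDK9; WT + ALKi, ALK inhibitor-treated; Y19F, Tyr19Phe CDK9). The upper row fell and the lower row rose; in POLR2B the Tyr19Phe libraries ran from 151 to 153 CPM.

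Of the 13 members called, POLR2B, GTF2A1, MED15, MED22 and TAF1C were called under all 18 alternatives and the other 8 were not; none changed sign. The number lower went from 7 to 4 without WT CDK9 replicate 1, WT CDK9 replicate 3, Tyr19Phe replicate 1 or Tyr19Phe replicate 3, and to 4 with the GC and length trend removed. Without ALK inhibitor replicate 2 and Tyr19Phe replicate 3, the libraries with fewer detected genes, 4 were lower and 6 were higher. The split of 7 lower and 6 higher became 6 and 8 with scaling by total count alone, and that over all tested genes went from 1695 lower and 1245 higher to 1451 and 1544.

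Promoters are shown for the lower and higher members with the smallest adjusted p among those listed in the RefSeq promoter table (GRCh38.p14) as the sequence around the start of genes that differed. Each runs 5′ to 3′ on the strand of the gene from 250 bases before the RefSeq start to 50 after, and for POLR2B, TAF1C and MED15 that start lies within the gene's span in the deposited table. Capitals mark matches, on either strand, to any of 6 motifs, none of which contains another: the TATA box TATAAA, the CCAAT box CCAAT, the GC box GGGCGG, the ETS motif CCGGAAG, the NRF1 motif GCATGCGC and the YY1 motif ATGGCGGC.
POLR2B: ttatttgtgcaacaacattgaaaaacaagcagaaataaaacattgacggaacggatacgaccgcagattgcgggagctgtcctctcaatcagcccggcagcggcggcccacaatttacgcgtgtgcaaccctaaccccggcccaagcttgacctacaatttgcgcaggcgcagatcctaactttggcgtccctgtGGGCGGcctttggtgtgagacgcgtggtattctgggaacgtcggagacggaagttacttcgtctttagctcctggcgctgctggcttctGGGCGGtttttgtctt
GTF2A1: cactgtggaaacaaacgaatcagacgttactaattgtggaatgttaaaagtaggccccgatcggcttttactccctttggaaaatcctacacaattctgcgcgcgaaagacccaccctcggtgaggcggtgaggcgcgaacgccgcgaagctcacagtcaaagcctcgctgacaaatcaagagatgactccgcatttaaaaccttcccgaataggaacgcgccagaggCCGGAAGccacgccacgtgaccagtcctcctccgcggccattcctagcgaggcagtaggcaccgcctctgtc
TAF1C: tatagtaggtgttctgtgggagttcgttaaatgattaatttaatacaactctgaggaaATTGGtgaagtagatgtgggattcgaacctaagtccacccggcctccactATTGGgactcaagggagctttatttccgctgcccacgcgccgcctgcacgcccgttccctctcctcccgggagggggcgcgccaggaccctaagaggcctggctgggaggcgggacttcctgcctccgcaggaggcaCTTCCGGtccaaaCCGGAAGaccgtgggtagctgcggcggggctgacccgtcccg
MED15: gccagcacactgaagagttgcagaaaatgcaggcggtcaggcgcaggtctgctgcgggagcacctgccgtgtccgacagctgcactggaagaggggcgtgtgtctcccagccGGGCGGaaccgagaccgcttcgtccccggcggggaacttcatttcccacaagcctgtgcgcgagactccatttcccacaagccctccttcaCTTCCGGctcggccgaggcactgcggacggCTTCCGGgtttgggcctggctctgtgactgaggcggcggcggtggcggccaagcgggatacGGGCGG
POLR2B (chr4:56978646-56978945, plus strand) held 2 GC boxes, and GTF2A1 (chr14:81221341-81221640, minus strand) held 1 ETS motif. TAF1C (chr16:84187008-84187307, minus strand) held 2 CCAAT boxes and 2 ETS motifs, and MED15 (chr22:20507360-20507659, plus strand) held 2 GC boxes and 2 ETS motifs. Over all 35116 promoters of this length in the table, 44.95% held a GC box, 34.6% a CCAAT box, 10.3% the ETS motif, 11.5% the TATA box, 3.05% the NRF1 motif and 2.996% the YY1 motif. Over the 10934 of these that belong to tested genes the shares were, in the same order, 69.75%, 36.2%, 18.7%, 5.597%, 5.36% and 6.03%. Of the 79 tested members 63 had an entry, too few for a share over the members to be given.

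Several of these genes lie in stretches of chromosome where neighbouring genes differed the same way in Tyr19Phe CDK9 cells, so each is set beside the median log2 fold change of the other tested genes, members left out, within 5 Mb on either side. POLR2B (ENSG00000047315, chr4:56977722-57031168 in GRCh38) fell by 0.30, and the 31 genes around it had a median of -0.21, with 9 lower and 1 higher at an adjusted p under 0.05. GTF2A1 (ENSG00000165417, chr14:81175452-81221377) fell by 0.35 and its 31 neighbours had a median of -0.16, with 7 lower and 1 higher. The neighbourhoods of 3 of the members that rose were high in the same way. TAF3 (chr10:7818504-8016627) had 0.35 beside a median of 0.31 over 37 genes, 18 of them higher and 2 lower, but within 2 Mb the median of 9 genes was 0.15. MED15 (chr22:20495913-20587632) had 0.24 beside 0.24 over 116 genes, 28 of them higher and 2 lower. MED22 (chr9:133338323-133348131) had 0.41 beside 0.22 over 158 genes, 59 of them higher and 8 lower.

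Around the other 8 called members the segment medians were nearer 0, from -0.05 to 0.09. TAF1C had 0.39 where its 68 neighbours had a median of -0.00, and GTF2H2C had 0.54 beside -0.03 over 54 genes. MED8 had 0.30 beside 0.05. Among those that fell, TAF12 had -0.40 beside 0.03, POLR2L -0.28 beside 0.09 and TAF2 -0.24 beside -0.05. MED13 had -0.23 beside -0.03, and MED13L -0.18 beside -0.00. The gap between member and segment did not sort the members in the same way: it was -0.19 for GTF2A1 and 0.185 for MED22, and -0.18 for TAF2 and -0.17 for MED13L. Within 2 Mb the segment medians were -0.10 for MED13L and 0.14 for MED8. The segment medians of all 79 tested members ran from -0.21 to 0.31 with a median of 0.0034. A shifted segment did not always go with a called member. MED28 on chromosome 4 had -0.08 in a segment at -0.20, MED6 on chromosome 14 had 0.05 in a segment at -0.18, and MED27, which shares part of its segment with MED22, had 0.10 in a segment at 0.22; these 3 were named after their values were seen. In ALK inhibitor-treated cells the segment medians were 0.03 around POLR2B, 0.04 around GTF2A1, 0.02 around TAF3, -0.05 around MED15 and -0.01 around MED22. The part of each segment in its member's change was not tested, and DNA copy number was not measured.

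**Figure D4:**
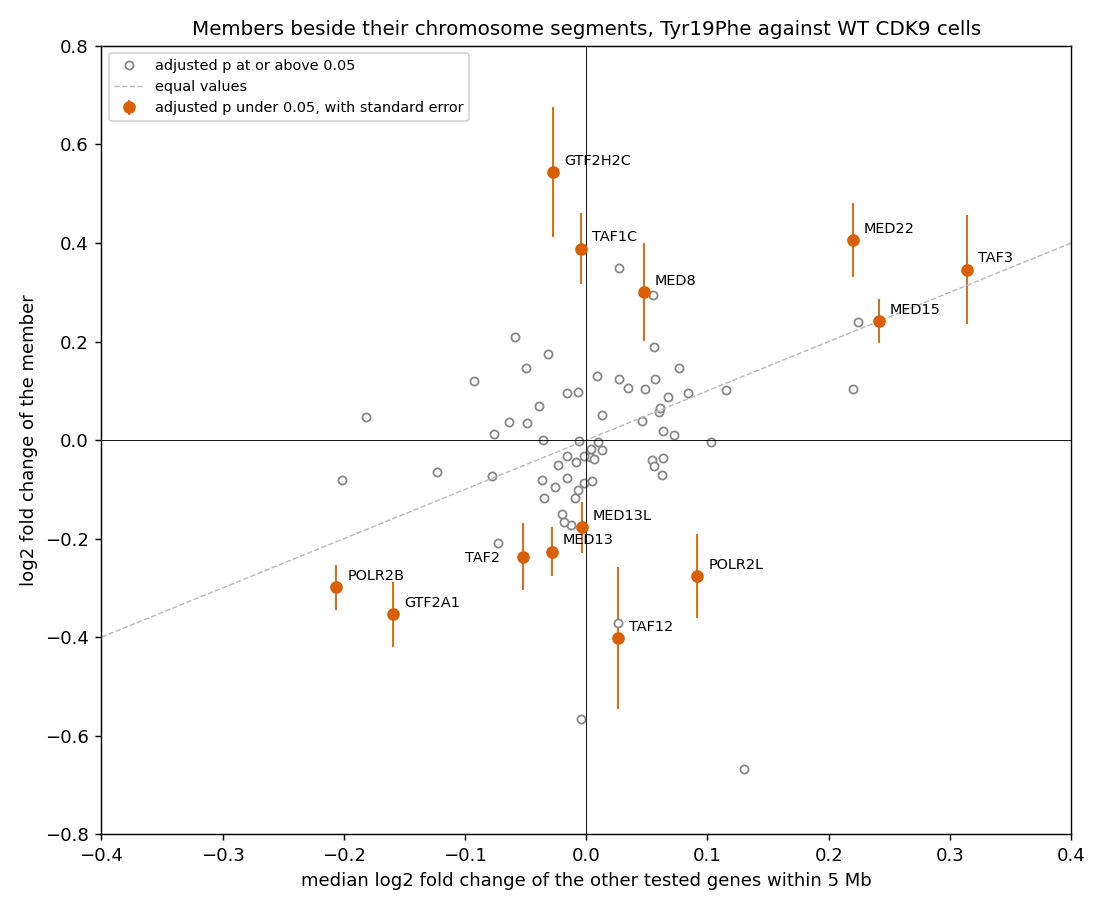
Log2 fold change of each tested member in Tyr19Phe against WT CDK9 cells (vertical axis) beside the median of the other tested genes within 5 Mb (horizontal axis); filled points have an adjusted p under 0.05 and bars are standard errors, the dashed line marks equal values and TAF7L at -1.94 is off the scale. POLR2B and GTF2A1 lie low on both axes and TAF3, MED15 and MED22 high on both, while GTF2H2C and TAF1C lie high over segments near 0.

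The Tyr19Phe CDK9 libraries were also set directly against the ALK inhibitor-treated libraries, which tests the difference between the mutant line and the treated wild-type line. Here 5 members were lower and 7 higher, or 6.33% and 8.86%, where 11.1% and 9.57% of all tested genes were. The comparison shares its Tyr19Phe libraries with the preceding one and its treated libraries with the first. Both comparisons with WT CDK9 cells share the 3 WT CDK9 libraries. Values are therefore given side by side only. TAF3 had the largest change among the members called, a log2 fold change of 0.52 with a standard error of 0.11 (adjusted p = 0.000761 by edgeR), beside -0.18 for treated and 0.35 for Tyr19Phe cells against WT CDK9 cells. GTF2H2C had 0.40 (adjusted p = 0.0255), beside 0.14 and 0.54. Its call was lost without ALK inhibitor replicate 1 or 3 or Tyr19Phe replicate 1 or 3, with an adjusted p of up to 0.255 and a log2 fold change of 0.24 without Tyr19Phe replicate 3. MED22 had 0.40 (adjusted p = 0.000154), beside 0.01 and 0.41. POLR2B had -0.30 (adjusted p = 5.51e-06), beside 0.00 and -0.30. Of the 12 members called in this comparison, 6 were called under all 18 alternatives: POLR2B, GTF2A1, TAF1C, TAF3, MED15 and MED22. POLR2F, a subunit shared by the nuclear polymerases, was called in the direct comparison alone, with 25.1, 29.6 and 22.3 CPM in Tyr19Phe CDK9 cells and 16.9, 21.6 and 22.1 CPM in treated cells, a log2 fold change of 0.35 and an adjusted p of 0.0359. Its call was lost with DESeq2 (0.0521) and without ALK inhibitor replicate 1, Tyr19Phe replicate 1 or Tyr19Phe replicate 2, over alternatives from 0.0143 to 0.252, and it was named after its value was seen. In POLR2F too, the segment on chromosome 22 had a median of 0.22 against WT CDK9 cells.

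Where the machinery has paralogs, SKOV3 cells used mostly 1 gene of a pair in some cases and both in others. MED12 had 32.7 TPM in WT CDK9 cells and MED12L 0.412 TPM, so MED12L made 1.25% of the pair. TAF7 had 215 TPM and TAF7L, best known from germ cells and fat, 0.718 TPM, or 0.328% of the pair. TAF7L had the most negative log2 fold change of any tested member in Tyr19Phe CDK9 cells, -1.94, but on 59 counts in all, with a standard error of 1.06 and an adjusted p of 0.232. TAF1 had 25.4 TPM where TAF1L had at most 1 count in a library, and GTF2A1 had 46.5 TPM where GTF2A1L had no count.

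Other pairs were shared. TAF9B made 51.7% of its pair with TAF9 in WT CDK9 cells, 52.7% in ALK inhibitor-treated cells and 52.7% in Tyr19Phe CDK9 cells, though the span of TAF9 lies wholly within AK6 on the same strand and its counts are uncertain. TAF4B, a form of TAF4 known from gonads, made 35.1% of its pair, and TAF6L, which replaces TAF6 in the SAGA coactivator, made 43.5%. TAF6L overlaps TMEM223 on the opposite strand over 98.0% of its span, so its share carries the doubt given above for POLR2L. TAF5L, the SAGA form of TAF5, was the larger of its pair at 76.2%, with 33.5 TPM against 10.5 TPM for TAF5. MED13L made 21.5% of its pair in WT CDK9 cells, 21.8% in treated cells and 22.1% in Tyr19Phe CDK9 cells, with libraries from 20.8% to 22.4%. For these 5 pairs the shares of the 3 groups overlapped over libraries.

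Genes next to the machinery were taken from 6 fixed lists with 62 genes, of which 61 were tested. Of these 1 was lower and 0 were higher in ALK inhibitor-treated cells, and 4 were lower in Tyr19Phe CDK9 cells. ERCC2, a helicase of TFIIH that its core subunits hold, was the gene that fell with the inhibitor. It had 63.3, 63.0 and 59.3 CPM in WT CDK9 cells, 47.0, 48.9 and 45.9 CPM in treated cells and 59.6, 57.3 and 58.8 CPM in Tyr19Phe CDK9 cells. The treated libraries were below all others, with a log2 fold change of -0.39, a standard error of 0.07 and an adjusted p of 0.000491 by edgeR.

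In Tyr19Phe CDK9 cells the genes that fell were CCNC, the cyclin of the Mediator kinases, RPRD1A, which binds the polymerase tail, and USP22 and TRRAP of SAGA. CCNC had 101, 102 and 110.2 CPM in WT CDK9 cells and 93.8, 89.1 and 90.3 CPM in Tyr19Phe CDK9 cells, a log2 fold change of -0.20 (adjusted p = 0.0163 by edgeR). Its kinases CDK8 and CDK19 had 0.07 and -0.13 with an adjusted p of 0.726 and 0.316. USP22, a deubiquitinase, had -0.28 (adjusted p = 6.2e-05), and TRRAP, a large scaffold, -0.22 (adjusted p = 0.00138). RPRD1A had -0.22 (adjusted p = 0.00197).

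Of 41 listed genes that carry the members' symbols or stems without being members, mostly pseudogenes and antisense genes, 18 had a count and 9 were tested. None was higher or lower than in the WT CDK9 libraries at an adjusted p under 0.05 in either comparison by edgeR. Over all tested genes 1.82% were higher and 2.73% lower with the inhibitor, and 7.61% and 10.4% in Tyr19Phe CDK9 cells. With only 9 genes tested, the absence of calls says little. For POLR2J, the copies POLR2J2, POLR2J3 and POLR2J4 may share its reads. The most abundant was POLR2M, with 44.8 CPM in WT CDK9 cells, 42.5 CPM in treated cells and 41.9 CPM in Tyr19Phe CDK9 cells.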

How the data were processed

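Total RNA of 9 libraries was sequenced. Per the labels and the study's methods, the authors mapped reads to hg38 (GRCh38) and deposited raw counts per gene, with a gene length in bases; the submitters' processing notes name CASAVA, HISAT2 2.0.5 and featureCounts 1.5.0-p3. The annotation, the strand setting and the treatment of reads that map to several places are not given in the sources used here. From the counts, genes were kept by filterByExpr (minimum count 10, minimum total 15) and fitted with edgeR 4.0.16 in R 4.3.3 (TMM scaling, quasi-likelihood test, 1 mean per group over 9 libraries, 6 residual degrees of freedom); Benjamini-Hochberg adjustment ran over all 16350 tested genes. Standard errors are the size of the log2 fold change divided by the square root of the test's F, and 95% intervals were built from them. The fit was first run on simulated counts. DESeq2 1.42.0 served as an alternative. TPM was computed from counts and gene length. Figures used Python 3.11.15.

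Members and lists were chosen with earlier results of these data known. Named are called members, defining subunits, paralog pairs, lower genes of neighbouring lists, untested members and the 3 largest direct changes; exceptions are marked. Alternatives covered scaling, tool, filter, protein-coding genes alone, GC content and length, a replicate block, the compared groups alone and each library left out.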

Additional observations from a re-analysis of the deposited data

How the results depend on the processing

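With the ALK inhibitor, 0 members were called in either direction under every alternative at an adjusted p under 0.05, and 1 lower and 1 higher in all 9 libraries at an unadjusted p under 0.05, with 1 to 3 lower and 1 to 3 higher when a library was left out. In Tyr19Phe against WT CDK9 cells, 7 lower became 4 with the GC and length trend removed, 4 with the replicate block and that trend removed together, 4 without ALK inhibitor replicate 2 and Tyr19Phe replicate 3 (chosen after seeing the data) and 3 at an adjusted p under 0.01; leaving out each library gave 4 to 7 lower and 4 to 7 higher, and 6 higher became 10 at an unadjusted p under 0.05. In the direct comparison, 5 lower became 3 with the GC and length trend removed and 11 at an unadjusted p, and 7 higher became 12 at an unadjusted p and 4 at an adjusted p under 0.01. The members' median log2 fold change became 0.0249 (ALK inhibitor) and 0.0230 (Tyr19Phe) with library size alone and 0.0181 (Tyr19Phe) with upper quartile scaling; in the direct comparison it ran from -0.0340 to 0.0073 without 1 library. A stricter threshold can only lower counts, by construction. Leaving out a library lowered some counts and raised others, and for this and the other settings the cause was not tested. Segment medians within 2 and 10 Mb were -0.15 and -0.16 around POLR2B, and 0.15 and 0.27 around TAF3.

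Same-numbered libraries of different groups deviated from their group means with correlations from -0.0116 to 0.026, so the numbers were not treated as pairs. With the replicate block, 7 members were lower and 6 higher in Tyr19Phe against WT CDK9 cells, 0 and 0 with the inhibitor and 5 and 8 in the direct comparison.

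Depth limits members with few counts, such as TAF7L (59) and GTF2H4 (94). With 3 libraries a group, small changes can be missed.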
